A study of Mus musculus with 10 samples.

Results

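Matrix metalloproteases (Mmps), Adamts proteases, a set of membrane-anchored Adam proteases and the tissue inhibitors of metalloproteases (Timps) were measured in mouse plantaris muscle during mechanical overload. The members were the genes whose symbol is Mmp or Adamts followed by a number, the 4 Timp genes, and Adam8, Adam9, Adam10, Adam12, Adam15, Adam17 and Adam19. They came to 51 of the 22180 genes that the array measured with a probe set of a single symbol: 22 Mmps, 18 Adamts genes, 7 Adams and 4 Timps. The rule used symbols and not expression values, but it was chosen with earlier results of these data known. The brightest probe set stood for each gene. Mmp15 and Adamts2 had no probe set of a single symbol and are not analysed here.

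All mice were male C57BL/6, and the plantaris, a calf muscle, was overloaded by synergist ablation, the surgical removal of the muscles that share its work. The 5 groups were overload with an inhibitor of PDGF for 3 d, overload alone for 3 d, overload with the inhibitor for 10 d, overload alone for 10 d, and muscle that was neither overloaded nor given the inhibitor. PDGF is a growth factor that acts on fibroblasts and other mesenchymal cells. Each group had 2 pools of RNA, each from 4 muscles and each run on 1 array. No label names the inhibitor, its dose or the age of the mice, and inhibitor without overload was not analysed here. Whether the 2 pools of a group held different animals is not stated, so all p-values describe the spread from pool to pool, which may be technical.

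Mmps and Adamts proteases are zinc enzymes that cut collagens, proteoglycans and other proteins of the extracellular matrix. Most are made as inactive precursors, which other proteases activate, and Timps block the active enzymes by binding to the catalytic site. Adams of the set sit in the cell membrane and release the outer parts of growth factors, cytokines and adhesion proteins. In injured or growing muscle, fibroblasts, macrophages, neutrophils and muscle precursor cells all make members of these families.

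The arrays had median log2 intensities between 2.40 and 2.45 and correlations between the pools of a group between 0.989 and 0.992. Markers of skeletal muscle averaged between 11.31 and 11.75 on the log2 scale in every pool. Markers of macrophages and monocytes averaged 7.82 and 7.56 in the 3 d overload pools and 5.97 and 6.53 in the 10 d overload pools, against 3.95 and 4.35 without overload. Fibroblast markers averaged 6.49 and 6.39 at 3 d and 7.15 and 7.68 at 10 d, against 5.97 and 6.15 without overload. In RNA from whole muscle, a larger number of cells of a type and more RNA per cell cannot be told apart. Pool 1 of the 3 d overload group stood apart in the granulocyte precursor genes Elane (5.21) and Mpo (5.02), which were at most 1.75 in all other pools. Pool 2 of the 10 d overload group stood apart in the cartilage proteoglycan Acan (6.06), which was at most 2.31 in all other pools. Col2a1, the other cartilage marker measured, was 3.65 in that pool and at most 3.28 in the others, a far smaller gap.

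After 3 d of overload, 20 of the 51 members rose and 2 fell against muscle without overload (limma, adjusted p under 0.05). The members called came to 43.1%, beside 17.5% of all genes tested (9.31% higher and 8.18% lower). The median change over the members was 0.50 on the log2 scale, against -0.04 over all genes. After 10 d, 16 members rose and none fell, 31.4% of the members beside 5.13% of all genes (3.90% higher and 1.23% lower), with a median change of 0.51 against -0.04. Both comparisons use the same pools without overload. Timp1, Adam12 and Mmp14 had the 3 largest called changes at 10 d, and Timp1, Adam12 and Mmp13 the 3 largest at 3 d. The pools of the groups did not overlap for 35 members at 3 d and for 35 at 10 d, where 55.8% and 50.2% of all genes also did not overlap. Between the overload times, 4 members were higher and 4 lower at 10 d than at 3 d, 15.7% of the members beside 6.08% of all genes (2.70% higher and 3.38% lower), and 36 members did not overlap between the times, beside 48.7% of all genes. Centring the arrays on a common median of their gene values lowered every change by 0.19 at 3 d and by 0.17 at 10 d and reversed no called member. It left 18 members higher and 4 lower at 3 d, with Adam9 and Mmp17 now lower, and 16 higher at 10 d. Over all genes it turned a split of 2066 higher and 1815 lower at 3 d into 1567 higher and 3295 lower, and one of 865 higher and 273 lower at 10 d into 678 higher and 896 lower.

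**Figure D1:**
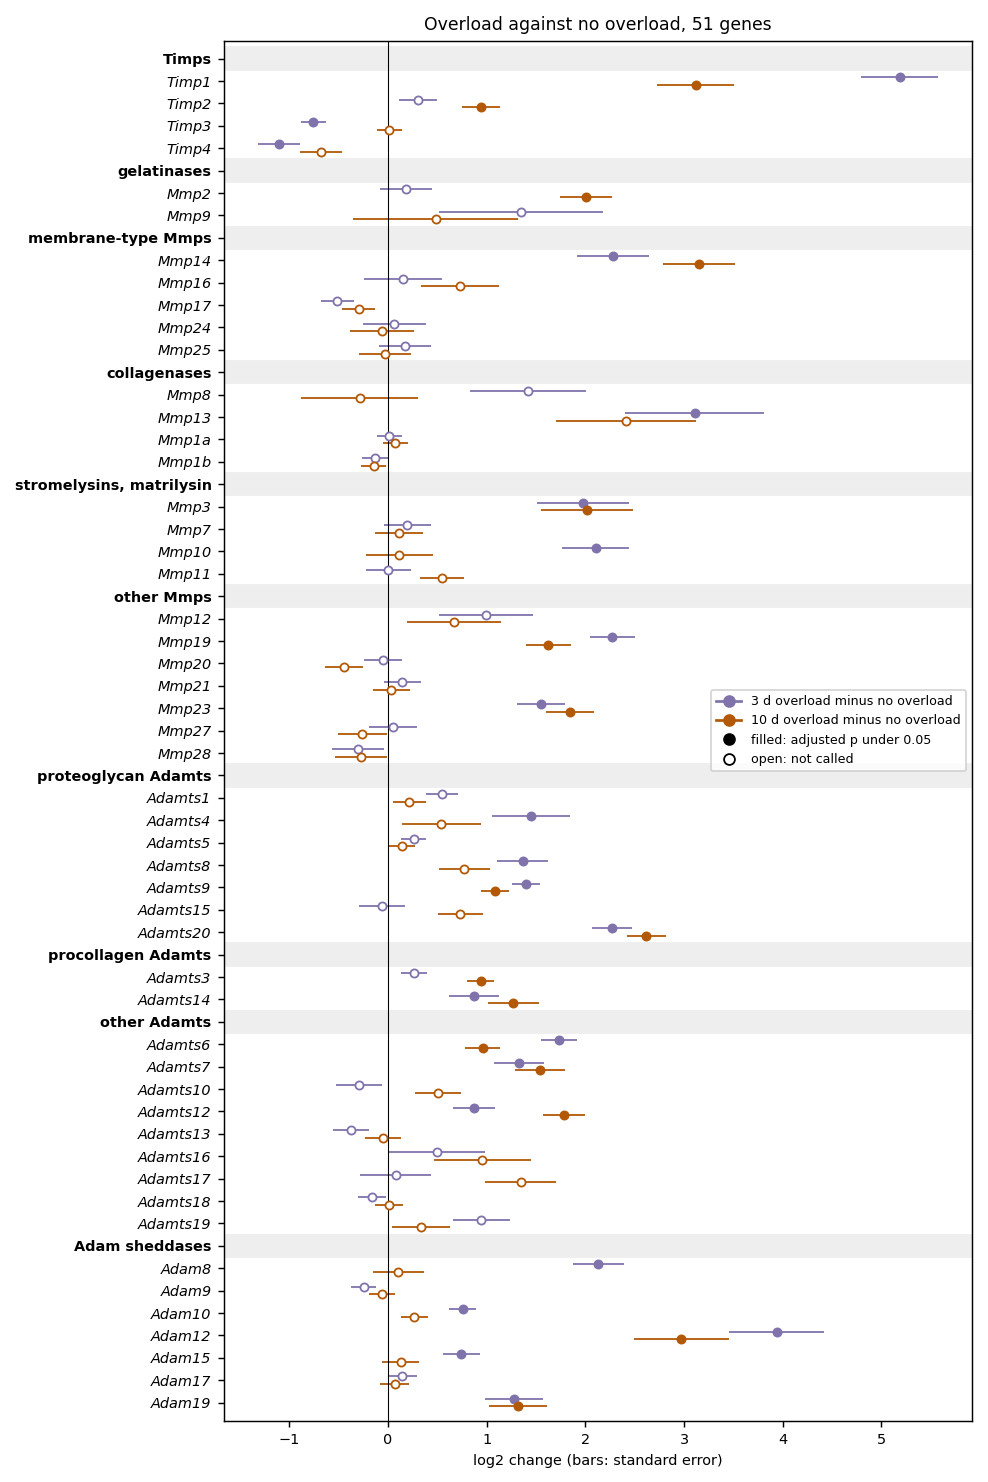
Log2 change of each of the 51 members in overloaded muscle against muscle without overload, at 3 d and at 10 d, grouped by role. Bars are standard errors, n = 2 pools a group, and filled points passed an adjusted p under 0.05. Timp1 lies farthest to the right at 3 d (5.19), and Timp3 and Timp4 are the only filled points left of 0.

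The 4 Timps did not move together. Timp1, a secreted inhibitor of most soluble Mmps, rose at both times, Timp3 and Timp4 fell at 3 d, and Timp2 rose at 10 d. Timp1 measured 7.92 and 7.59 in the 3 d overload pools and 5.20 and 6.18 in the 10 d overload pools, against 2.02 and 3.12 in the pools without overload. All overloaded pools therefore lay above both pools without overload. The change was 5.19 ± 0.39 at 3 d, a 36.4-fold rise (log2 change ± SE, n = 2 pools a group, adjusted p = 0.00017), and 3.12 ± 0.39 at 10 d (adjusted p = 0.00524). It was the largest change of any member at 3 d. Timp1 was lower at 10 d than at 3 d by a log2 change of -2.07 ± 0.39 (adjusted p = 0.021), a call that was lost without either 3 d pool or without pool 1 at 10 d (-2.56 to -1.58 over all 10 omissions of a pool).

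Timp3, an inhibitor bound to the matrix that also blocks Adamts4, Adamts5 and Adam17, measured 7.70 and 7.83 in the 3 d overload pools and 8.49 and 8.58 at 10 d, against 8.51 and 8.53 without overload. The 3 d pools lay below all the others, and the 10 d pools surrounded those without overload. Its change was -0.76 ± 0.13 at 3 d (adjusted p = 0.00426) and 0.01 ± 0.13 at 10 d, and it was higher at 10 d than at 3 d by 0.77 ± 0.13 (adjusted p = 0.0136). The last call was lost without pool 1 at 3 d (0.71) or pool 2 at 10 d (0.73). Timp4, a secreted inhibitor that can bind the Mmp2 precursor, measured 4.87 and 4.97 at 3 d and 5.58 and 5.10 at 10 d, against 5.81 and 6.23 without overload. It fell by 1.10 ± 0.21 at 3 d (adjusted p = 0.00804), and its change of -0.68 ± 0.21 at 10 d did not pass (adjusted p = 0.113). The 3 d call was lost without pool 1 at 3 d (-1.05) or pool 2 without overload (-0.89). Timp2, which with Mmp14 forms the complex that activates the Mmp2 precursor, measured 8.74 and 8.52 at 3 d and 8.99 and 9.55 at 10 d, against 8.39 and 8.27 without overload. It rose by 0.94 ± 0.19 at 10 d (adjusted p = 0.0311), and by 0.66 without pool 2, where the call was lost. The call held in 5 of the 10 omissions.

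**Figure D2:**
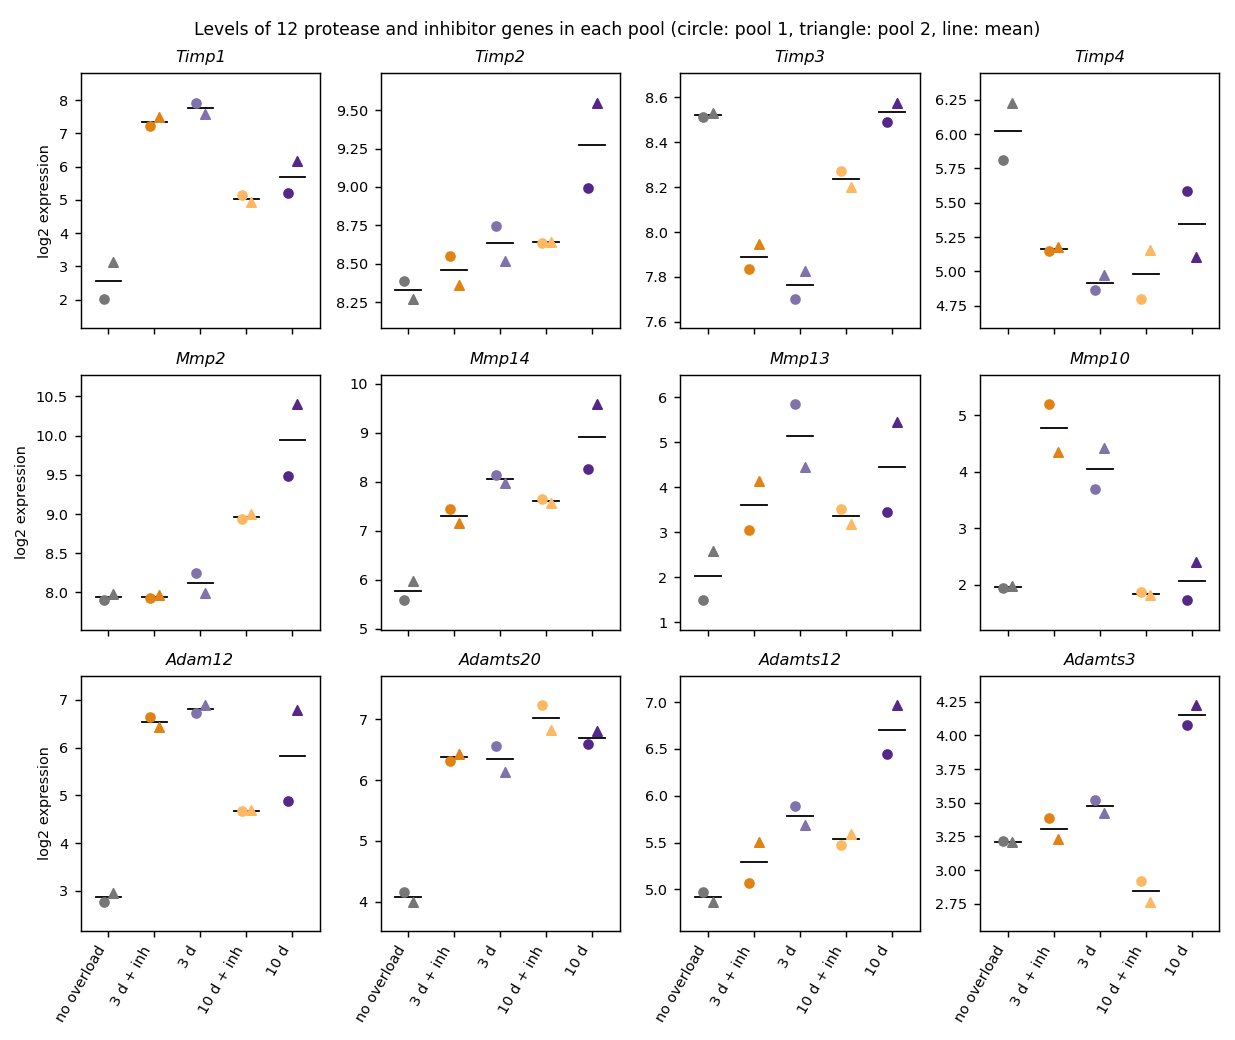
Log2 expression of 12 members in each of the 10 pools. Circles are pool 1, triangles are pool 2 and lines are group means, and the levels of different genes are not comparable because each has its own probe set. The 2 pools of the 10 d overload group lie far apart for Adam12 (4.88 and 6.79) and Mmp14 (8.25 and 9.58).

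Mmp2, the gelatinase that fibroblasts secrete, rose at 10 d and not at 3 d. It measured 8.25 and 7.99 in the 3 d overload pools and 9.49 and 10.40 at 10 d, against 7.90 and 7.98 without overload. Both 10 d pools lay above all other pools. The change was 2.01 ± 0.26 at 10 d, a 4.02-fold rise (adjusted p = 0.00566), and 0.18 ± 0.26 at 3 d (adjusted p = 0.716). Without pool 2 at 10 d the 10 d change was 1.55. The difference between the times, 1.82 ± 0.26, passed (adjusted p = 0.0081), and was 1.69 (adjusted p = 0.0515) without pool 2 at 3 d. Mmp14, the membrane-type protease that cuts collagen at the cell surface and activates the Mmp2 precursor, rose at both times. It measured 8.13 and 7.97 at 3 d and 8.25 and 9.58 at 10 d, against 5.58 and 5.97 without overload. The changes were 2.28 ± 0.36 at 3 d (4.85-fold, adjusted p = 0.00356) and 3.15 ± 0.36 at 10 d (8.86-fold, adjusted p = 0.00401), and the 2 times did not differ past the threshold (adjusted p = 0.219). Its 10 d change was 2.48 without pool 2 at 10 d. The other membrane-type Mmps, Mmp16, Mmp17, Mmp24 and Mmp25, passed at neither time, with changes between -0.51 and 0.17 at 3 d and between -0.30 and 0.73 at 10 d. Fibroblast markers moved with Mmp2: 5 of 6 were called higher at 10 d, beside 2 higher and 1 lower at 3 d, and their part in the change was not tested.

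Among the collagenases, stromelysins and matrilysin, Mmp13, Mmp3 and Mmp10 rose at 3 d. These 3 genes lie in a run of 10 Mmp genes on mouse chromosome 9 with no other protein-coding gene between them, in the order Mmp13, Mmp12, Mmp1b, Mmp3, Mmp1a, Mmp10, Mmp8, Mmp27, Mmp20 and Mmp7. Their promoters are printed because they carry the motif TGANTCA, the site of the AP-1 transcription factors, and the TATA motif TATAAA. They are RefSeq sequences of build GRCm38.p6, 250 bases before to 50 bases after the transcription start, 5′ to 3′ on the gene's strand, with both motifs in capitals. The promoter of Timp1 on chromosome X, the member with the largest change, is set beside them.
Mmp13 (chr9:7272264-7272563, + strand): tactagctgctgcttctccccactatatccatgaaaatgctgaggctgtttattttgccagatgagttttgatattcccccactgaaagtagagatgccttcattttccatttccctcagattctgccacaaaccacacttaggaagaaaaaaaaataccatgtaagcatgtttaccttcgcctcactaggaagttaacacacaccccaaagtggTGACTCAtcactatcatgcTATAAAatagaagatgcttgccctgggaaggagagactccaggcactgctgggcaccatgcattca
Mmp3 (chr9:7445572-7445871, + strand): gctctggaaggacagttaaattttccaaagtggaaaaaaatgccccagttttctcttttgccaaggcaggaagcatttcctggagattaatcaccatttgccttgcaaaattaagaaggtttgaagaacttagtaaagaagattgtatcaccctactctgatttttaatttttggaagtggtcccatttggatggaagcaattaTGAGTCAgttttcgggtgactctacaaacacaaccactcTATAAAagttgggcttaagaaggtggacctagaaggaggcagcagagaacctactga
Mmp10 (chr9:7502092-7502391, + strand): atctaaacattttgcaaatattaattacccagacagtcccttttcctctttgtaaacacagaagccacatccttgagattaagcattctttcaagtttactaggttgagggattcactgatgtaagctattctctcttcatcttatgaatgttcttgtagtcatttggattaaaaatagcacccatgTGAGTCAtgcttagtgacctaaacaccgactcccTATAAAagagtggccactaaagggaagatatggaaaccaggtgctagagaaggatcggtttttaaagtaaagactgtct
Timp1 (chrX:20869916-20870215, + strand): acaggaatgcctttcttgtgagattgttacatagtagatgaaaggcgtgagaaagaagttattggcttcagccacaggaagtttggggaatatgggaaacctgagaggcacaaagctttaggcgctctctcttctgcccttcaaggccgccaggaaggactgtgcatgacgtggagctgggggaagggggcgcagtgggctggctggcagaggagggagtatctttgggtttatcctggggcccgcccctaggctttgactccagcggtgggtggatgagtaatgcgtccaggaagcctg

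The AP-1 motif starts 35 bases before the start site in Mmp13, 46 in Mmp3 and 63 in Mmp10, and TATAAA starts 16, 7 and 29 bases before it. Each was searched on both strands, and they do not overlap each other. Neither set of letters occurs in this window of Timp1. A promoter was at hand for 35 of the 51 members. TGANTCA occurred in 9 of their 40 promoters (22.5%), beside 7.81% of the 32851 promoters in the table, and TATAAA in 27.5%, beside 13.6%. Among promoters of members called higher at 3 d, 23.5% had TGANTCA and 17.6% TATAAA, beside 21.7% and 34.8% for the members not called higher. Of the 10 genes of the run, 8 had TGANTCA in a promoter. They were the 3 that rose at 3 d and also Mmp12, Mmp1a, Mmp1b, Mmp20 and Mmp7, which passed in no comparison. Of the 25 members elsewhere with a promoter, only Adam19 had it. A match describes the letters and not a bound site, and the lack of an exact match does not show that no site is there.

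Mmp13, the main interstitial collagenase of rodents, measured 5.85 and 4.44 in the 3 d overload pools and 3.46 and 5.44 at 10 d, against 1.49 and 2.58 without overload. All overloaded pools lay above the pools without overload, with wide gaps between pools of a group. The change was 3.11 ± 0.71 at 3 d (8.61-fold, adjusted p = 0.017), and 2.40 without pool 1 at 3 d and 2.56 without pool 1 of the no-overload group, where the call was lost. At 10 d the change of 2.41 ± 0.71 did not pass (adjusted p = 0.0919). Mmp3, stromelysin 1, which cuts proteoglycans and activates other Mmp precursors, measured 3.82 and 3.11 at 3 d and 2.74 and 4.26 at 10 d, against 1.47 and 1.50 without overload. The groups did not overlap, and the changes were 1.98 ± 0.47 at 3 d (adjusted p = 0.0197) and 2.01 ± 0.47 at 10 d (adjusted p = 0.0457). The 3 d call was lost without pool 1 at 3 d (1.62) or either no-overload pool (1.96 and 1.99), and the 10 d call held in 1 of 10 omissions (1.26 without pool 2 at 10 d).

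Mmp10, stromelysin 2, was high at 3 d and not at 10 d. It measured 3.69 and 4.42 in the 3 d overload pools and 1.72 and 2.41 at 10 d, against 1.93 and 1.97 without overload. The 3 d pools lay above those of 10 d and of no overload, and the 10 d pools surrounded the no-overload pools. The change was 2.10 ± 0.34 at 3 d (4.30-fold, adjusted p = 0.0036) and 0.11 ± 0.34 at 10 d. The fall between the times, -1.99 ± 0.34, passed (adjusted p = 0.0149), but not without pool 2 at 3 d (-1.63) or pool 1 at 10 d (-1.65). In the 3 d pools with the inhibitor it measured 5.20 and 4.35, a range that overlapped the 3 d pools without the inhibitor and lay above the pools of the remaining groups.

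Of the other Mmps, Mmp19 and Mmp23 rose at both times. Mmp19, a protease of basement membrane proteins, measured 6.08 and 5.74 at 3 d and 5.05 and 5.47 at 10 d, against 3.34 and 3.93 without overload. Its changes were 2.27 ± 0.23 at 3 d (adjusted p = 0.000525) and 1.63 ± 0.23 at 10 d (adjusted p = 0.00834), and the 10 d call was lost without pool 2 at 10 d (1.41) or pool 1 of the no-overload group (1.33). Mmp23, a membrane protease without the usual hemopexin domain, measured 4.26 and 4.67 at 3 d and 4.38 and 5.13 at 10 d, against 2.96 and 2.88 without overload. It rose by 1.55 ± 0.24 at 3 d and by 1.84 ± 0.24 at 10 d, and both calls held in all 10 omissions. Mmp12, the macrophage elastase, measured 3.57 and 2.74 at 3 d and 2.0 and 3.65 at 10 d, against 2.24 and 2.09 without overload. Its changes of 0.99 ± 0.48 and 0.67 ± 0.48 did not pass, while 8 of 8 macrophage markers were called higher at both times.

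Adamts proteases that cut versican and aggrecan, the large proteoglycans of provisional and cartilage-like matrix, numbered 7. At 3 d 4 of them rose (Adamts4, Adamts8, Adamts9 and Adamts20), and at 10 d 2 rose (Adamts9 and Adamts20), where 9.31% and 3.90% of all genes rose. Adamts20, a versican-cleaving protease known from pigment cell development, measured 6.57 and 6.13 at 3 d and 6.59 and 6.81 at 10 d, against 4.16 and 4.0 without overload. The overloaded pools all lay far above the no-overload pools. It changed by 2.27 ± 0.20 at 3 d (4.82-fold, adjusted p = 0.000266) and by 2.62 ± 0.20 at 10 d (6.14-fold, adjusted p = 0.001). Adamts9, a widely expressed protease that cuts versican, measured 7.10 and 6.83 at 3 d and 6.69 and 6.62 at 10 d, against 5.63 and 5.51 without overload, with changes of 1.40 ± 0.14 and 1.09 ± 0.14. Calls for both genes held in all 10 omissions at both times.

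Adamts4, aggrecanase 1, measured 4.16 and 3.24 at 3 d and 2.41 and 3.18 at 10 d, against 2.60 and 1.91 without overload. Its change of 1.45 ± 0.40 at 3 d passed (adjusted p = 0.0377), and was 0.99 without pool 1 at 3 d and 1.10 without pool 2 of the no-overload group, where the call was lost; it held in 6 of 10 omissions. Adamts8 measured 5.28 and 5.05 at 3 d and 4.86 and 4.29 at 10 d, against 3.78 and 3.83 without overload. It rose by 1.36 ± 0.26 at 3 d (adjusted p = 0.00768, and 1.25 with the call lost without pool 1 at 3 d), while its second, dimmer probe set changed by 0.12 ± 0.15. Adamts1, a protease of versican that is also induced by inflammation, measured 7.34 and 7.11 at 3 d and 6.87 and 6.92 at 10 d, against 6.56 and 6.80 without overload, and its 3 d change of 0.55 ± 0.17 did not pass (adjusted p = 0.0557). Adamts5, aggrecanase 2, measured 6.89 and 7.02 at 3 d and 6.87 and 6.81 at 10 d, against 6.66 and 6.73 without overload, and passed in no comparison.

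Adamts3 and Adamts14 remove the amino-terminal propeptide from fibrillar procollagens, a step that collagen fibres need to assemble. Adamts3 measured 3.52 and 3.43 at 3 d and 4.08 and 4.22 at 10 d, against 3.21 and 3.21 without overload. Its 10 d pools were the highest of all groups. It rose by 0.94 ± 0.14 at 10 d (adjusted p = 0.00843), while the 3 d change was 0.26 ± 0.14, and the difference of 0.68 ± 0.14 between the times passed (adjusted p = 0.0247). The 10 d call was lost without pool 2 at 10 d (0.87) or pool 1 of the no-overload group (0.94), and the call between times held in 6 of 10 omissions (0.61 to 0.75). Adamts14 measured 3.86 and 3.37 at 3 d and 3.95 and 4.07 at 10 d, against 2.81 and 2.67 without overload. It rose by 0.87 ± 0.25 at 3 d (adjusted p = 0.0476, held in 2 of 10 omissions, 0.63 to 1.12) and by 1.27 ± 0.25 at 10 d (adjusted p = 0.028, held in 6 of 10, 1.20 to 1.34). Its dimmer second probe set changed by -0.44 ± 0.26 at 3 d and by 0.15 ± 0.26 at 10 d, so the 2 probe sets disagreed.

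Of the other 9 Adamts genes, Adamts6, Adamts7 and Adamts12 rose at both times. Adamts12, which like Adamts7 cuts cartilage oligomeric matrix protein, measured 5.89 and 5.69 at 3 d and 6.44 and 6.96 at 10 d, against 4.97 and 4.87 without overload. Its change was 0.87 ± 0.21 at 3 d (adjusted p = 0.0222, held in 6 of 10 omissions, 0.77 to 0.97) and 1.78 ± 0.21 at 10 d (3.44-fold, adjusted p = 0.00419, held in all 10). The time difference of 0.91 ± 0.21 passed (adjusted p = 0.0409) but held in 3 of 10 omissions (0.65 without pool 2 at 10 d). Adamts7 measured 3.60 and 3.45 at 3 d and 3.76 and 3.73 at 10 d, against 1.75 and 2.65 without overload. It rose by 1.32 ± 0.25 and by 1.54 ± 0.25, and these calls were lost without pool 1 at 3 d (1.25) and without pool 2 at 10 d (1.56). The pools without overload lay far apart: the 3 d change was 0.87 without pool 1 of them and 1.77 without pool 2, and both values passed. Adamts6, a protease linked to the microfibril network, measured 6.16 and 6.30 at 3 d and 5.43 and 5.48 at 10 d, against 4.68 and 4.31 without overload. It rose by 1.73 ± 0.18 at 3 d (adjusted p = 0.000567) and by 0.96 ± 0.18 at 10 d (adjusted p = 0.0225, held in 6 of 10 omissions, 0.78 to 1.14), and the time difference of -0.77 ± 0.18 (adjusted p = 0.0425) held in 4 of 10.

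Among the Adams, 5 of 7 rose at 3 d and 2 of 7 at 10 d, where 9.31% and 3.90% of all genes rose. Adam12, meltrin alpha, known for its expression in regenerating muscle and in activated fibroblasts, measured 6.72 and 6.88 at 3 d and 4.88 and 6.79 at 10 d, against 2.77 and 2.95 without overload. Every overloaded pool lay above both no-overload pools. The changes were 3.94 ± 0.48 at 3 d (15.3-fold, adjusted p = 0.00105) and 2.97 ± 0.48 at 10 d (adjusted p = 0.0134), the second lost without either no-overload pool (2.88 and 3.06) and spanning 2.01 without pool 2 at 10 d to 3.92 without pool 1. Adam8, a sheddase of leukocytes, measured 5.51 and 4.76 at 3 d and 2.94 and 3.27 at 10 d, against 3.14 and 2.87 without overload. Its rise at 3 d was 2.13 ± 0.26 (4.38-fold, adjusted p = 0.00098), and its level at 10 d was lower than at 3 d by a log2 change of -2.03 ± 0.26 (adjusted p = 0.0059), a call that held in all 10 omissions.

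Adam10, the sheddase of Notch receptors, measured 8.0 and 7.90 at 3 d and 7.42 and 7.49 at 10 d, against 7.32 and 7.06 without overload, a 3 d change of 0.76 ± 0.14 (adjusted p = 0.00603). Adam15, a sheddase with an integrin-binding domain, changed by 0.74 ± 0.19 at 3 d (adjusted p = 0.0265), held in 6 of 10 omissions (0.62 to 0.87), and its second probe set by -0.25 ± 0.26. Adam19, meltrin beta, a sheddase of neuregulin, rose by 1.27 ± 0.29 at 3 d and 1.32 ± 0.29 at 10 d, and its second probe set changed by 0.42 ± 0.21 and 0.41 ± 0.21. These Adam19 calls held in 7 and in 3 of the 10 omissions, with changes of 0.84 and 0.89 without pool 2 of the no-overload group. Adam17, the sheddase of tumour necrosis factor, and Adam9 passed in no comparison, with levels of Adam17 between 6.58 and 6.96 in all 10 pools.

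In 25 of the 51 members no comparison passed. Among these were Mmp8 and Mmp9, the collagenase and gelatinase that neutrophils store in granules. Mmp9 measured 5.96 and 2.68 in the 3 d overload pools and 3.50 and 3.41 at 10 d, against 2.62 and 3.33 without overload. Mmp8 measured 3.92 and 1.90 at 3 d and 1.20 and 1.20 at 10 d, against 1.41 and 1.57 without overload. In both genes pool 1 at 3 d was high and pool 2 was not. The mean of 9 other neutrophil markers was 4.79 in that pool 1 and 2.0 in pool 2, beside 2.08 and 1.75 without overload, and its part in the values was not tested. The 3 d change of Mmp9 over all pools was 1.35 ± 0.84 (adjusted p = 0.342). It was -0.30 without pool 1 (adjusted p = 0.68) and 2.99 without pool 2 (adjusted p = 0.00316), so its sign and its call turned on which single 3 d pool was kept.

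**Figure D3:**
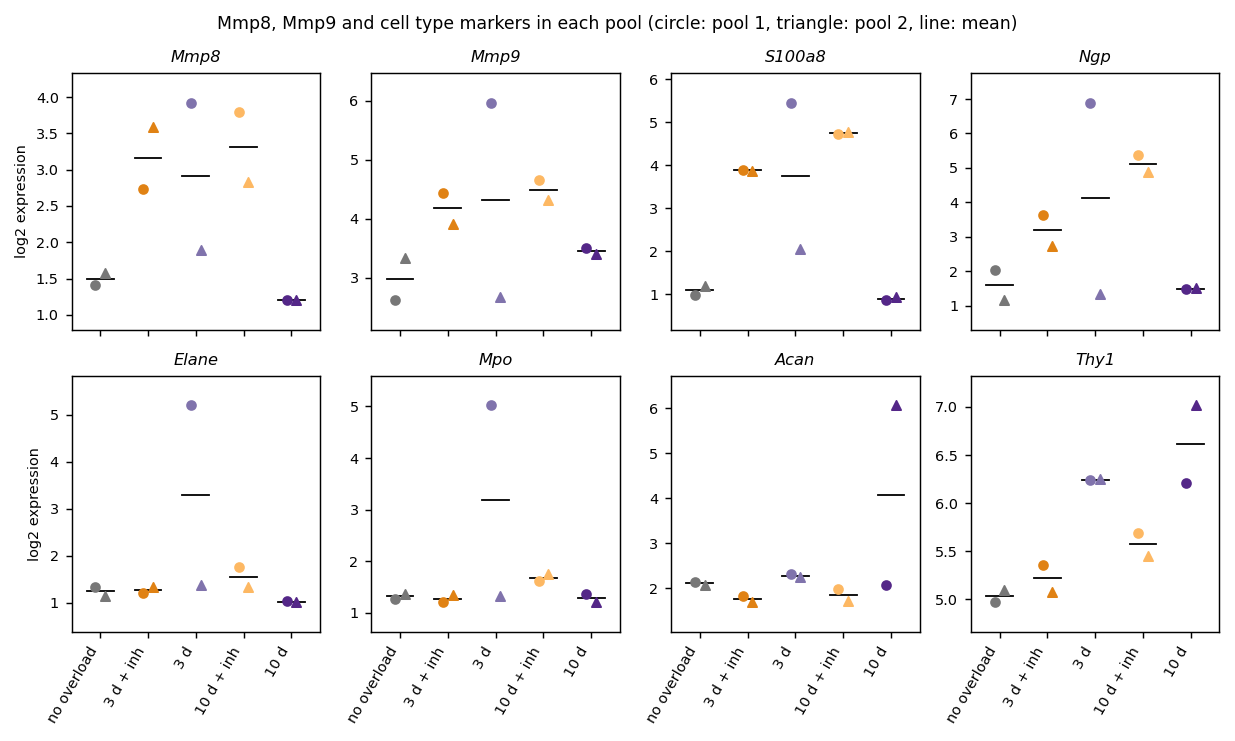
Log2 expression of Mmp8, Mmp9 and 6 markers in each pool: the neutrophil genes S100a8 and Ngp, the granulocyte precursor genes Elane and Mpo, the cartilage gene Acan and the fibroblast gene Thy1. Circles are pool 1, triangles are pool 2 and lines are group means. Mmp9 (5.96), Elane (5.21) and Mpo (5.02) are high in pool 1 at 3 d of overload, and Acan (6.06) in pool 2 at 10 d.

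The inhibitor was set against overload alone at the same time, and few members passed. At 3 d no member passed, as no gene of the whole array did (0%), while 7 members had an unadjusted p under 0.05, 1 higher and 6 lower, 13.7% of the members beside 9.07% of all genes. The pools of 29 members did not overlap, beside 40.0% of all genes. At 10 d 1 member passed, Adamts3, which fell, beside 0.104% of all genes (0.0225% higher and 0.0812% lower). At an unadjusted p under 0.05, 16 members passed at 10 d, 1 higher and 15 lower, 31.4% beside 10.6% of all genes. The median inhibitor effect over the members at 10 d was -0.30, against 0.01 over all genes. The pools did not overlap for 33 members, beside 41.2% of all genes, and 26 of them were lower with the inhibitor, beside 19.5% of all genes.

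Adamts3 measured 2.92 and 2.77 in the 10 d pools with the inhibitor, against 4.08 and 4.22 in the 10 d pools without it. The inhibited pools lay below those of every other group, the no-overload pools (3.21 and 3.21) included. The inhibitor effect was -1.31 ± 0.14, a 2.48-fold fall (adjusted p = 0.0256), and over both times -0.74 ± 0.10 (adjusted p = 0.028), where 0.289% of all genes passed (0.0631% higher and 0.225% lower). The 10 d effect stayed between -1.39 and -1.23 in the 10 omissions but passed in 3 of them, with adjusted p up to 0.137, and the mean effect also passed in 3 of 10, with adjusted p up to 0.111. At 3 d Adamts3 measured 3.39 and 3.23 with the inhibitor, against 3.52 and 3.43 without it, an effect of -0.17 ± 0.14. The difference between the effects at the 2 times, -1.14 ± 0.19, did not pass (adjusted p = 0.516), and no gene of the array passed that test (0%). At an unadjusted p under 0.05 there were 6 members, all lower, 11.8% beside 6.47% of all genes.

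Adamts14, the other procollagen protease, measured 2.82 and 2.99 with the inhibitor at 10 d, against 3.95 and 4.07 without it. The effect of -1.11 ± 0.25 did not pass (adjusted p = 0.181), and its dimmer second probe set changed by -0.49 ± 0.26. Adamts12 measured 5.48 and 5.60 with the inhibitor, against 6.44 and 6.96 without it (-1.17 ± 0.21, adjusted p = 0.128). Adamts7 measured 2.53 and 2.35 with the inhibitor, against 3.76 and 3.73 without it (-1.30 ± 0.25, adjusted p = 0.139). In each of these 3 genes both inhibited pools lay below both pools without the inhibitor, and the 95% interval of the effect was below 0 before adjustment, from -1.69 to -0.53 for Adamts14, from -1.65 to -0.69 for Adamts12 and from -1.88 to -0.72 for Adamts7.

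The collagen-cutting pair followed the same order at 10 d. Mmp14 measured 7.65 and 7.56 in the 10 d pools with the inhibitor, against 8.25 and 9.58 without it, an effect of -1.32 ± 0.36 (adjusted p = 0.24). Mmp2 measured 8.93 and 9.0 with the inhibitor, against 9.49 and 10.40 without it, an effect of -0.98 ± 0.26 (adjusted p = 0.226). Timp2 measured 8.63 and 8.65 with the inhibitor, against 8.99 and 9.55 without it (-0.63 ± 0.19, adjusted p = 0.284). None of these effects passed, and in each gene pool 2 without the inhibitor was the highest. Without that pool the effects were -0.65 for Mmp14, -0.52 for Mmp2 and -0.35 for Timp2, and without pool 1 they were -1.98, -1.44 and -0.91. Each of these omissions leaves a single pool in the 10 d overload group. Which members passed turned on the pool kept, as did the number of calls over all genes. The fibroblast markers averaged 6.71 and 6.65 with the inhibitor, against 7.15 and 7.68 without it, and the tendon markers 6.20 and 6.66, against 7.16 and 7.78. Their part in these effects was not tested.

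**Figure D4:**
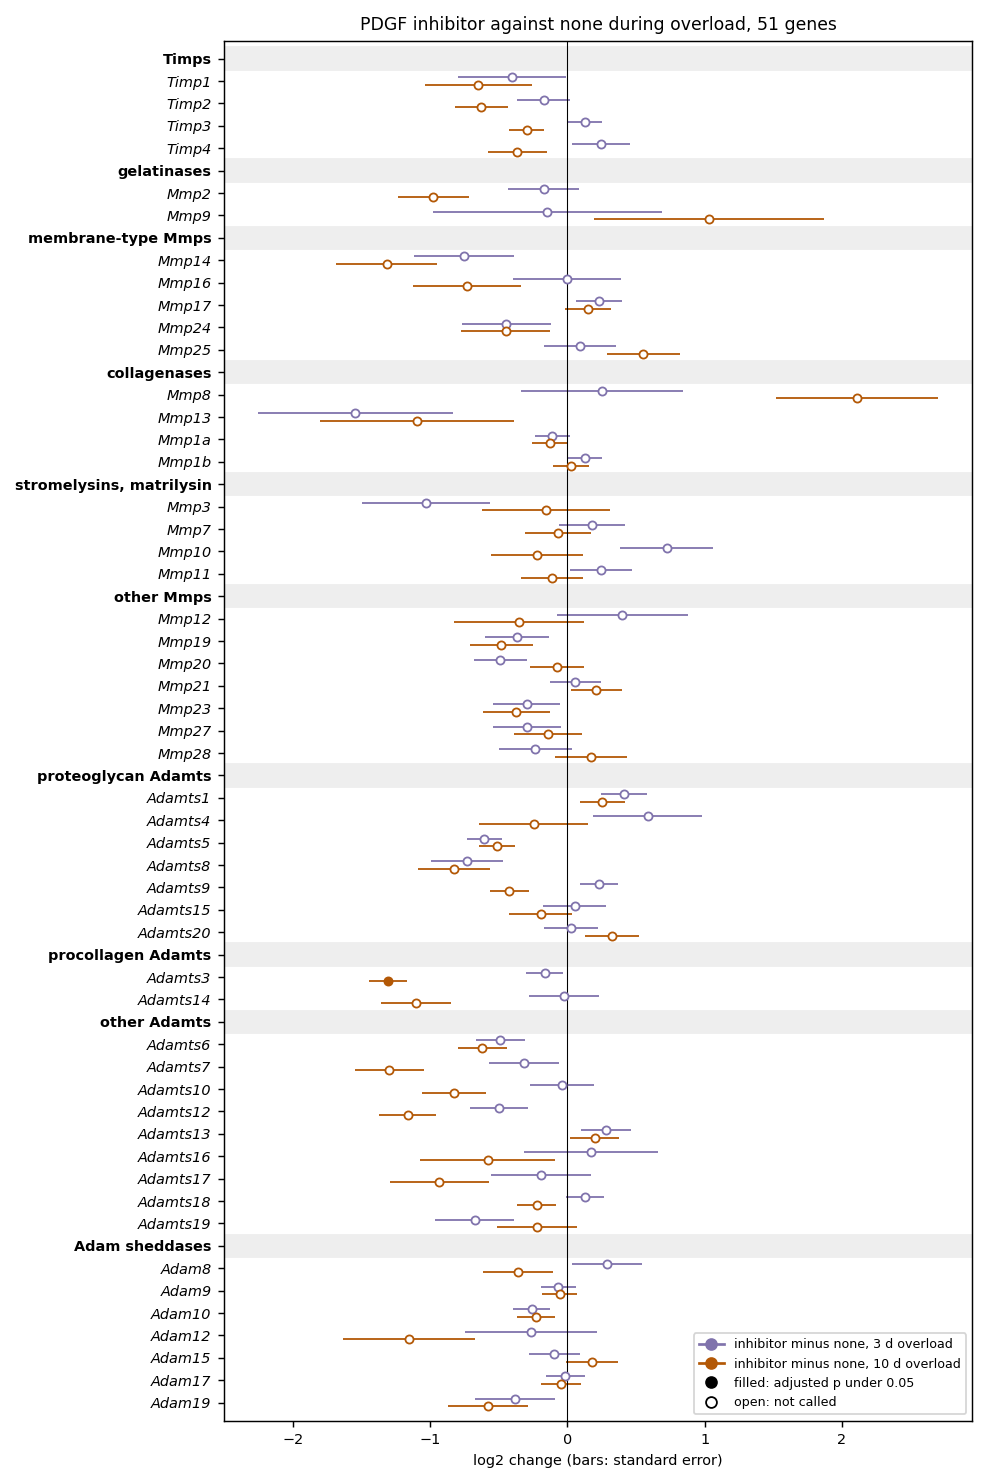
Log2 change of each of the 51 members with the inhibitor against overload alone, at 3 d and at 10 d, grouped by role. Bars are standard errors, n = 2 pools a group, and the single filled point is Adamts3 at 10 d (-1.31). Most 10 d points lie left of 0, and Mmp8 lies farthest to the right (2.11).

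At 3 d the 2 largest inhibitor effects were those of Mmp13 and Mmp3. Mmp13 measured 3.06 and 4.14 in the 3 d pools with the inhibitor, against 5.85 and 4.44 without it, an effect of -1.55 ± 0.71 (adjusted p = 0.564). Mmp3 measured 2.66 and 2.20 with the inhibitor, against 3.82 and 3.11 without it, an effect of -1.03 ± 0.47 (adjusted p = 0.56). The pools did not overlap in either gene, and neither effect passed. Without pool 1 of the 3 d overload group they were -0.84 and -0.68. Adamts5 was low with the inhibitor at both times. It measured 6.43 and 6.27 with the inhibitor at 3 d, against 6.89 and 7.02 without it, and 6.35 and 6.30 with the inhibitor at 10 d, against 6.87 and 6.81 without it. The effects of -0.61 ± 0.13 and -0.51 ± 0.13 passed at neither time, nor did the mean of -0.56 ± 0.09 over both times (adjusted p = 0.0569). Adamts8 measured 4.07 and 4.81 with the inhibitor at 3 d, against 5.28 and 5.05 without it, and 3.78 and 3.71 at 10 d, against 4.86 and 4.29 (-0.73 ± 0.26 and -0.83 ± 0.26, neither passing). Its dimmer second probe set changed by -0.002 ± 0.15 at 3 d and by -0.14 ± 0.15 at 10 d. Adamts20 was not lower with the inhibitor, with 7.23 and 6.82 in the 10 d pools with the inhibitor, against 6.59 and 6.81 without it (0.32 ± 0.20, interval from -0.13 to 0.78). Timp1 measured 5.14 and 4.94 with the inhibitor at 10 d, against 5.20 and 6.18 without it, and the interval of its effect ran from -1.54 to 0.24.

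Mmp8 had the largest inhibitor effect in size at 10 d and ran the other way. It measured 3.80 and 2.83 in the 10 d pools with the inhibitor, against 1.20 and 1.20 without it (2.11 ± 0.59, adjusted p = 0.242). Mmp9 measured 4.66 and 4.31 with the inhibitor, against 3.50 and 3.41 without it (1.03 ± 0.84). The mean of the neutrophil markers without Mmp8 was 4.08 and 3.75 in these inhibited pools, against 1.67 and 1.50, and S100a8, a calcium-binding protein abundant in neutrophils, measured 4.72 and 4.78, against 0.86 and 0.93. At 3 d Mmp8 measured 2.74 and 3.59 with the inhibitor, against 3.92 and 1.90 without it, and Mmp9 4.44 and 3.90, against 5.96 and 2.68, with overlap in both genes. The inhibitor effect at 10 d minus that at 3 d was 1.86 ± 0.84 in Mmp8 and 1.18 ± 1.18 in Mmp9, and without pool 1 of 3 d overload it was 0.85 and -0.47, with no call. Of 10 neutrophil markers 1 was called higher with the inhibitor at 10 d. The part of these markers in the Mmp8 and Mmp9 values was not tested.

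Set against muscle without overload, inhibited overload still raised members of these families. At 3 d with the inhibitor 14 members were higher and 2 lower, 31.4% beside 14.2% of all genes (7.71% higher and 6.51% lower), and the pools of 38 members did not overlap, beside 53.2% of all genes. Timp1 measured 7.21 and 7.50 in these pools (4.78 ± 0.39), Adam12 6.63 and 6.44 (3.67 ± 0.48) and Mmp10 5.20 and 4.35 (2.83 ± 0.34). The other rises were those of Adam8, Adam10, Adamts4, Adamts6, Adamts7, Adamts9, Adamts20, Mmp14, Mmp19 and Mmp23, between 0.50 and 2.42, and Timp3 (-0.63 ± 0.13) and Timp4 (-0.86 ± 0.21) were lower. Of the 16 calls 9 held in all 10 omissions, and that of Adam10 held in none. Adamts1 passed in this comparison alone, with 7.65 and 7.62 in the inhibited 3 d pools, against 6.56 and 6.80 without overload (0.96 ± 0.17, adjusted p = 0.00682). At 10 d with the inhibitor 3 members were higher and none lower, 5.88% beside 1.56% of all genes (1.13% higher and 0.428% lower), and 36 did not overlap, beside 46.6% of all genes. The 3 called were Adamts20 (2.94 ± 0.20), Timp1 (2.47 ± 0.39) and Mmp23 (1.47 ± 0.24). Of these, the Adamts20 call alone held in all 10 omissions, Timp1 held in 7 (lost without either inhibited 10 d pool or pool 1 of the no-overload group, at 2.37, 2.57 and 1.92), and Mmp23 held in 6. Mmp14 (1.83 ± 0.36, adjusted p = 0.0512) and Mmp19 (1.14 ± 0.23, adjusted p = 0.0528) lay just above the threshold.

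In every group the pools differed by more than 1 on the log2 scale in a larger share of members than of all genes. The shares were 5.88% beside 1.49% at 3 d of overload and 5.88% beside 1.86% without overload. With the inhibitor, where 1 member differed so at each time, they were 1.96% beside 1.6% at 3 d and 1.96% beside 1.13% at 10 d. The share of members was largest in the 10 d overload group. In all, 7 members (13.7%) differed by more than 1 on the log2 scale between its pools, beside 2.24% of all genes: Adam12, Adamts17, Mmp12, Mmp13, Mmp14, Mmp16 and Mmp3. Pool 2 was the higher in all 7, and in 35 of the 51 members, beside 10685 of 22180 genes. Pool 1 was the higher in 35 members at 3 d of overload and in 35 at 10 d with the inhibitor. In the 10 d overload pools Adamts17, a protease linked to fibrillin, measured 3.67 and 4.79, against 2.60 and 3.17 without overload. Its change of 1.34 ± 0.36 did not pass (adjusted p = 0.0726). Mmp16 measured 2.48 and 3.74, against 2.44 and 2.32. The same pool 2 held the high Acan value and the higher mean of fibroblast markers given above, and the part of these in the gaps was not tested.

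Proteases, activators and inhibitors that work with these families were taken as a separate list, of which 19 were measured. Those called came to 52.6% at 3 d, 26.3% at 10 d and 15.8% between the times, beside 17.5%, 5.13% and 6.08% of all genes. At 3 d 8 rose and 2 fell, and the 4 largest changes were those of the macrophage-rich cathepsin Ctss (3.69 ± 0.33), the collagen-degrading cathepsin Ctsk (1.90 ± 0.42), the protease inhibitor Tfpi2 (1.82 ± 0.32) and the plasminogen activator Plat (1.62 ± 0.23). Those that fell were the proprotein convertase Pcsk6 (-0.71 ± 0.17) and Bsg, the inducer of Mmps known as basigin (-0.70 ± 0.13). At 10 d 5 rose and none fell: Ctsk (3.07 ± 0.42), Ctss (1.73 ± 0.33), the procollagen C-proteinase Bmp1 (1.52 ± 0.25), the convertase Pcsk5 (1.10 ± 0.22) and the fibroblast protease Fap (1.05 ± 0.24). Between the times the serine protease Htra1 was higher at 10 d than at 3 d (1.29 ± 0.32), and Ctss (-1.96 ± 0.33) and the cathepsin Ctsb (-0.59 ± 0.14) were lower. Of the substrates, 6 of 13 (46.2%) rose at each time, beside 9.31% of all genes at 3 d and 3.90% at 10 d. Col3a1, the collagen of young scar matrix, changed by 3.02 ± 0.23 at 3 d and 3.37 ± 0.23 at 10 d, and Vcan, the proteoglycan versican, by 2.50 ± 0.23 and 1.86 ± 0.23. No gene of either list passed with the inhibitor at 3 d or at 10 d, and the median inhibitor effect on the substrates at 10 d was -0.88.

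Among 7 genes of the Adamts-like group, which share domains with Adamts proteases but have no protease domain, Adamtsl4 alone passed in the comparisons of overload without the inhibitor. It made up 14.3% of the group at 3 d and between the times, where 17.5% and 6.08% of all genes were called. It fell at 3 d by 2.09 ± 0.18 (adjusted p = 0.000258), was higher at 10 d than at 3 d by 2.17 ± 0.18 (adjusted p = 0.0022), and differed by 0.08 ± 0.18 between 10 d of overload and no overload. Of the 51 members, 22 had a mean level under the median of all genes, 3.13. Of the chromosome 9 run these were all but Mmp13, and they included Mmp3 and Mmp10, as well as the called Adamts4 and Adamts7. With genes under that median left out of the fit, these 4 were not tested. The dim members of the run that passed nowhere were Mmp1a, Mmp1b, Mmp7, Mmp8, Mmp12, Mmp20 and Mmp27. Without Mmp8 and Mmp12, their changes lay between -0.13 and 0.20 at 3 d and between -0.45 and 0.11 at 10 d. The 3 d changes of Mmp8 and Mmp12 lay above that range. Mmp8 measured 3.92 and 1.90 at 3 d against 1.41 and 1.57 without overload, and Mmp12 3.57 and 2.74 against 2.24 and 2.09.

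The remaining members that passed nowhere were Mmp11, Mmp21, Mmp28, Adamts10, Adamts13, Adamts15, Adamts16, Adamts18 and Adamts19. Adamts10, a protease of the fibrillin microfibrils, measured 5.18 and 4.63 at 3 d of overload and 5.50 and 5.91 at 10 d, against 5.28 and 5.12 without overload. Its changes of -0.29 ± 0.23 and 0.51 ± 0.23 did not pass. Adamts15 measured 2.21 and 2.13 at 3 d and 2.85 and 3.08 at 10 d, against 2.63 and 1.84 without overload, and its 10 d change of 0.73 ± 0.23 did not pass (adjusted p = 0.115). Adamts19 changed by 0.94 ± 0.29 at 3 d (adjusted p = 0.0575) and Adamts16 by 0.95 ± 0.49 at 10 d (adjusted p = 0.322). Mmp11, stromelysin 3, changed by 0.00 ± 0.23 at 3 d and 0.55 ± 0.23 at 10 d. Its dimmer second probe set changed by 0.73 ± 0.29 and 0.65 ± 0.29, so the 2 probe sets disagreed at 3 d. Adamts13, the protease of von Willebrand factor, Adamts18, Mmp21 and Mmp28 changed by between -0.37 and 0.15 at 3 d and between -0.28 and 0.03 at 10 d.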

How the data were processed

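RNA of 10 pools of plantaris muscle was hybridised to Mouse Gene 2.1 ST arrays, and the authors deposited log2 expression values per probe set. Oligo and RMA, a method that corrects background, normalises by quantiles and summarises probes, and limma are named in the submitters' processing notes, with versions not given in the sources used here. The labels name both a GeneChip WT PLUS kit and NuGEN amplification kits, and arrays limit precision by their number. Of 41345 probe sets, 23521 carried 1 gene symbol, 1814 several and 16010 were not listed in the platform annotation used. The brightest probe set stood for each of 22180 genes. A limma fit (version 3.58.1, R 4.3.3) had 1 coefficient per group over 10 arrays and 5 residual degrees of freedom, for 9 comparisons. P-values were adjusted by Benjamini-Hochberg over all genes, with a threshold of 0.05. The procedure was run on simulated data with independent noise and known changes, which held no outlying pools such as those seen here. The members, roles and companion lists were chosen with earlier results of these data known. Values are given for every member called in any comparison, all Timps and gelatinases, the 2 largest changes of each comparison, and up to 4 called genes with the largest changes per companion list and comparison. Members called nowhere, and Pcsk6, Bsg and Fap, were named after their values were seen. Alternatives were a common median, the mean of a gene's probe sets, a filter on dim genes, a trended robust prior, a fit of the compared arrays alone and the omission of single arrays. RefSeq sequences (GRCm38.p6) were matched by gene ID.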

Additional observations from a re-analysis of the deposited data

Results flagged for a closer look

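The inhibitor effect pointed opposite ways at the 2 times in Adamts9 and Timp3, with no overlap between the pools at either time. The pools of 40.0% of all genes at 3 d and of 41.2% at 10 d also did not overlap. In Adamts9 the effect was -0.42 at 10 d, where the pools with the inhibitor measured 6.28 and 6.19, against 6.69 and 6.62 without it. At 3 d it was 0.23, with 7.23 and 7.17, against 7.10 and 6.83. The difference, 10 d minus 3 d, was -0.65 and did not pass the test of the difference (limma, adjusted p = 0.681). In Timp3 the effect was -0.30 at 10 d, with 8.27 and 8.20 in the pools with the inhibitor, against 8.49 and 8.58 without it. At 3 d it was 0.13, with 7.835 and 7.945, against 7.702 and 7.826, so the nearest pools were almost level. The difference of -0.42 did not pass either (adjusted p = 0.749).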

How the results depend on the processing

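No member call reversed in any of the alternatives run. Fitting only the arrays compared left 1 call at 10 d of overload, Adamts20 (16 in the fit of all arrays), 0 between 10 d and 3 d (8), 0 for the inhibitor at 10 d (1) and 2 for the mean inhibitor effect (1), with 2 residual degrees of freedom for a pair of groups. A trended robust prior gave 2 calls for the inhibitor at 10 d (adding Adamts12), 4 for its mean effect (adding Adamts12, Adamts5 and Adamts6) and 9 for inhibited overload at 10 d (3). Leaving out genes under the median level gave 3 and 8 for the last pair of comparisons. Between the overload times both of these gave 12 calls (8). Calls over all genes moved too. Fitting only the arrays compared left 31 at 10 d of overload (1138) and 202 between the times (1348). It left 3 for the inhibitor at 10 d (23) and 49 for its mean effect (64). The trended robust prior gave 161 for the inhibitor at 10 d (23) and 455 for its mean effect (64). For inhibited overload at 10 d it gave 1068 (345). Leaving out dim genes gave 219 and 830 for the last pair. Between the times these settings gave 2458 and 2295 (1348). Omitting single arrays gave 13 to 22 member calls at 3 d, 8 to 16 at 10 d, 3 to 8 between the times, 0 to 5 for the inhibitor at 10 d, 0 to 5 for its mean effect, 10 to 17 for inhibited overload at 3 d and 1 to 9 at 10 d. The inhibitor at 3 d and the difference of its effects had 0 calls throughout, beside 7 and 6 members at an unadjusted p under 0.05. Of the calls at 3 d, 12 of 22 held in every omission, 7 of 16 at 10 d, 1 of 8 between the times and 9 of 16 for inhibited overload at 3 d. Leaving out pool 1 at 3 d gave 13 calls at 3 d, and leaving out pool 2 at 10 d gave 8 at 10 d. The cause of these shifts was not tested. With 2 pools a group, the pool numbers name arrays only. No paired analysis was possible because the labels give the groups no shared replicate numbers. Signal over background was not analysed here, so small changes of the 22 members below the median level are less certain.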
